A study of Mus musculus with 24 samples.

Results

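The hypothalamic response of unlesioned mice to growth hormone (GH) was described by comparing RNA of Sham mice given GH (Sham+GH) with RNA of Sham mice without it. Sham mice are the controls for a pituitary stalk electrical lesion (PEL), and neither group carried the lesion. The 6 libraries were chosen by their sample titles from the 24 of the series, 3 from each group, and both groups are labelled day 0. The mice were male C57BL/6J, and the dissected hypothalamus held the supraoptic and paraventricular nuclei. The dose, route and duration of GH, any vehicle given to the controls and the age of the mice are not given in the sources used here. The labels do not say whether a library came from 1 mouse or from several, so p-values measure only the spread between these libraries.

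GH is a pituitary hormone whose receptor signals through the kinase JAK2 and the transcription factors STAT5A and STAT5B. These induce insulin-like growth factor 1 (IGF1) and the feedback inhibitors SOCS2 and CIS. In the hypothalamus, GHRH neurons stimulate and somatostatin neurons restrain pituitary GH release, and both receive feedback from GH and IGF1.

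Total counts ranged from 15095267 to 17453164 over the 6 libraries. The library labelled Sham 1 stood apart from the rest. The 16 hypothalamus markers, among them the peptides AVP, oxytocin and POMC and the transcription factors SIM1 and OTP, summed to 11.1 CPM (counts scaled to a common library total) there, against 1150.0 and 1090.0 CPM in Sham 2 and 3 and 769, 1050.0 and 1030.0 CPM in Sham+GH 1 to 3. Avp, Pomc and Otp were at 0.274, 0.684 and 0.205 CPM in Sham 1, and Agrp and Sim1 were at 0. Its 10 choroid plexus markers summed to 19800.0 CPM against 107 to 127 CPM in the other 5 libraries, and its 14 hippocampus markers to 1450.0 against 634 to 703 CPM. The profile of Sham 1 therefore goes against its label of hypothalamus, and the comparison was made without it, with 2 Sham and 3 Sham+GH libraries. The study also left an outlier Sham sample out of its hypothalamic analysis, which used 2, and its text does not say which. The values with Sham 1 are given beside the results they touch, and a level in Sham 1 is no measure of untreated hypothalamus.

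With GH, 116 genes rose and 43 fell among 14539 genes tested (edgeR quasi-likelihood test with Benjamini-Hochberg adjusted p under 0.05), which is 0.798% of the tested genes higher, 0.296% lower and 1.09% in either direction. Among the listed genes, the risers included 6 of 16 glucocorticoid-responsive genes, 3 of 16 clock genes and 3 of 22 hypothalamic transcription factors, and 3 of 21 immediate early genes and 3 of 15 chaperones fell. The changes were mostly small. The median log2 fold change was 0.52 among the genes that rose and -0.40 among those that fell, and 20 and 4 of them passed a 2-fold change (an absolute log2 fold change of 1). Over all tested genes the median log2 fold change was 0.00, and 1215 genes were higher and 972 lower at an unadjusted p under 0.05.

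All 159 called genes had no overlap between the groups, as did 17.0% of tested genes with every treated library higher and 16.0% with every one lower. The number of calls rested on single libraries. Leaving out Sham 2 gave 52 called genes, leaving out Sham 3 gave 45 and leaving out Sham+GH 1 gave 44, of which 31, 35 and 41 were among the 159. Leaving out Sham+GH 2 or 3 gave 190 and 130, with 122 and 95 shared. Any fit of these groups without Sham 2 or Sham 3 leaves 1 control, so its p-values hold no spread among controls. With Sham 1 added to the controls, 0 of 14404 genes (0.0%) passed in edgeR, 338 were higher and 449 lower at an unadjusted p under 0.05, and DESeq2 called 11 (0.062%). Without Sham 1, DESeq2 called 262 (2.03%), of which 151 were among the 159. Of the 159 genes, 97 of the 116 risers and 41 of the 43 others kept the sign of their difference with Sham 1 included. Of 42 named genes called in Sham, 11 stayed called whichever single library was left out and 3, Ccdc151, Dynlt1c and Slco1a4, lost the call whichever it was. The 11 were Cpne9, Grm2, Hif3a, Myo5b, Foxb1, Sgk1, Fos, Dbp, Kit, Ank1 and Rgs6. A fit over the 6 hypothalamic groups, whose spread is then shared, called 13 genes, 12 of them among the 159. In bulk tissue, fewer cells of a type and less RNA per cell cannot be told apart.

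**Figure D1:**
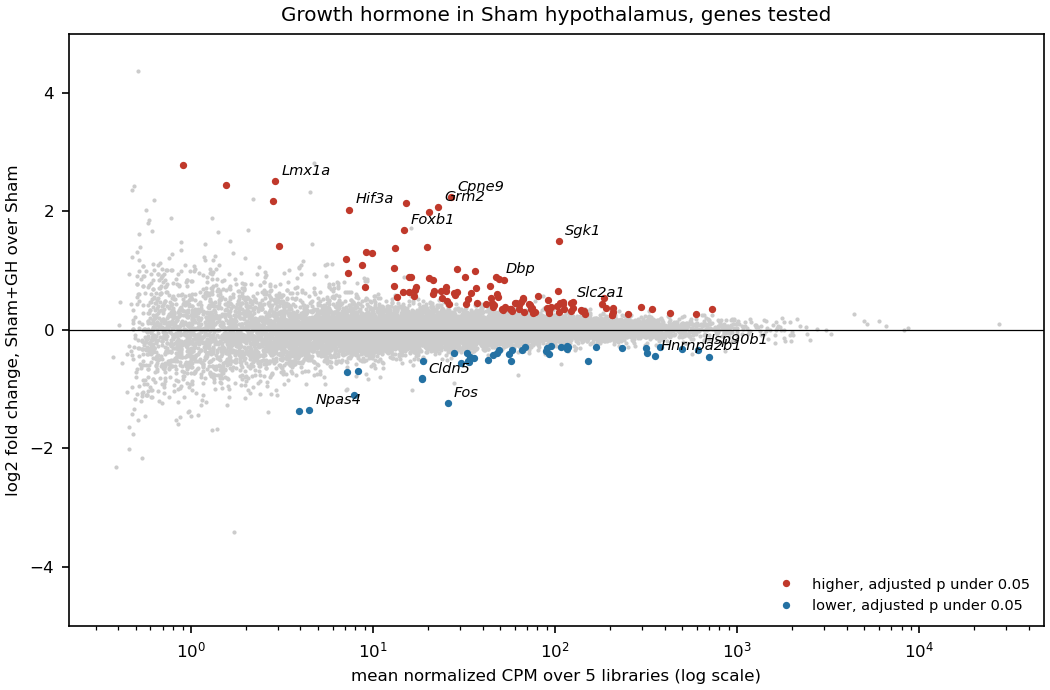
Each point is 1 gene tested in Sham hypothalamus, with its mean normalized CPM over 5 libraries on a log axis and its log2 fold change of Sham+GH over Sham. Red points are the 116 genes that rose and blue points the 43 that fell at an adjusted p under 0.05. The 2 genes beyond an absolute log2 fold change of 5 are not drawn and were not called.

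Genes that respond to glucocorticoid hormones formed the list with the most calls. That list, like the others, was chosen with earlier results of these data known. Of its 16 members, all tested, 6 rose, 0 fell, 15 had a log2 fold change above 0 and 11 were higher at an unadjusted p under 0.05, with a median of 0.38 against 0.00 over all genes. Sgk1, a kinase that regulates ion channels and transporters, lies at chr10:21882184-21999903 (GRCm38) and measured 39.0 and 60.7 CPM in Sham 2 and 3 and 165, 114 and 144 CPM in Sham+GH 1 to 3. Every Sham+GH library was above both Sham libraries, and the difference was a log2 fold change of 1.5 ± 0.17 (SE), adjusted p = 0.0019. Sham 1 read 132 CPM. Hif3a, a hypoxia-inducible factor subunit that can restrain the others, at chr7:17031507-17062427, measured 2.18 and 2.98 CPM in Sham 2 and 3 and 7.69, 10.9 and 13.2 CPM in Sham+GH 1 to 3. Both controls were below all treated libraries, and the log2 fold change was 2.03 ± 0.25 (SE), adjusted p = 0.0036. Sham 1 read 2.67 CPM.

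Tsc22d3, which encodes the anti-inflammatory protein GILZ, measured 73.5 and 81.9 CPM without GH and 119, 109 and 139 CPM with it. The groups were apart, and the log2 fold change was 0.65 ± 0.09 (SE), adjusted p = 0.00705. Klf9, a transcription factor gene induced directly by glucocorticoid receptor, measured 92.5 and 90.8 CPM without GH and 130.0, 118 and 126 CPM with it. Its libraries were tight within each group and the log2 fold change was 0.44 ± 0.06 (SE), adjusted p = 0.00636. Sham 1 read 49.0 CPM of Tsc22d3 and 225 CPM of Klf9. Arrdc2, an arrestin-domain protein, and Plin4, a lipid droplet protein, rose by 1.09 ± 0.19 and 0.95 ± 0.20 (SE) on the log2 scale, with adjusted p = 0.0176 and 0.0482. The other members did not pass. Zbtb16 (also called PLZF) measured 9.52 and 10.0 CPM without GH and 10.3, 17.8 and 26.4 CPM with it, with Sham+GH 1 level with the controls and an adjusted p of 0.159. Fkbp5, the receptor's co-chaperone, had a log2 fold change of 0.32 ± 0.10 (SE), adjusted p = 0.136. Ddit4, a stress-induced mTOR inhibitor, was the 1 member below 0, at -0.04. Called members fell to 3 without Sham 2 and to 3 without Sham 3, and were 4, 5 and 7 without Sham+GH 3, 1 and 2. The fit over all 6 hypothalamic groups called 2 members.

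These genes also stood above 0 with GH in lesioned mice, in comparisons that share no library with the Sham comparison. Because earlier results were known when the list was chosen, the shared direction is no independent repeat. In PEL_3d (GH at day 3 after the lesion, 3 libraries against 3) and PEL_10d (day 10, likewise), 16 of 16 members were above 0 in each, 13 and 11 of them at an unadjusted p under 0.05, with medians of 0.59 and 0.50. Log2 fold changes of Hif3a were 2.03 in Sham, 1.30 in PEL_3d and 1.83 in PEL_10d. For Sgk1 they were 1.5 in Sham, 0.79 in PEL_3d and 1.06 in PEL_10d, and for Tsc22d3 0.65 in Sham, 0.67 in PEL_3d and 0.55 in PEL_10d. Zbtb16 passed in PEL_3d, at 1.91 with an adjusted p of 0.000777. Other members did not pass in PEL_3d and none passed in PEL_10d. Over all genes edgeR called 4 higher in PEL_3d (0.027%), namely Zbtb16, Gpr50, Fam107a and Socs2, and 1 to 3 of them when any library but PEL_3d_GH 3 was left out, while DESeq2 called 57 (0.351%). Without PEL_3d_GH 3 edgeR called 56. In PEL_10d it called 0 (0.0%), 550 and 356 genes were higher and lower at an unadjusted p under 0.05, and DESeq2 called 41 (0.477%).

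The glucocorticoid receptor binds an inverted repeat, searched as GNACA, then NNN, then TGTNC, where N is any base. The pattern reads the same on both strands, and it was 1 of 5 motifs searched after the calls were seen. RefSeq promoter windows of 300 bases, from 250 before to 50 after each annotated start (GRCm38.p6), were searched for it. It was found in 0.47% of all 32851 windows, in a window of 45 of 11306 tested genes with a window, of 3 of the 92 genes that rose and of 0 of the 36 that fell. The 3 genes were Sgk1, Fam107a and Sptb. Upstream stretches of Sgk1 (chr10:21993642-21993774, plus strand) and Fam107a (chr14:8309825-8309957, minus strand) are shown because both genes rose with GH in Sham and were above 0 in both lesioned groups, with the match in capitals.
Sgk1: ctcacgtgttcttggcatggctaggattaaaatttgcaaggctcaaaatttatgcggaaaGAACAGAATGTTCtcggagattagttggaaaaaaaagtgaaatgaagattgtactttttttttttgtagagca
Fam107a: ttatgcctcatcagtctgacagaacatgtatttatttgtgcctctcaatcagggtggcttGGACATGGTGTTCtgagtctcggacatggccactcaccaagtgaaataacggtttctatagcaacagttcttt
The Sgk1 match lies 188 to 176 bases before 1 of its 6 annotated starts, and the Fam107a match 118 to 106 bases before a start. A match describes these letters only, and binding was not measured.

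Several genes outside the list followed the same course across the 3 comparisons, and are named after their values were seen. Of the 115 genes called higher in Sham that could be tested in PEL_3d, 19 were higher there at an unadjusted p under 0.05, as were 3.71% of all genes tested in both. In PEL_10d the count was 18 of 115, against 3.69%. Another 7 and 8 were lower there at that p. The 14 genes higher in both were Plin4, Arrdc2, Hif3a, Sgk1, Per1, Fam107a, Slc2a1, Mfsd2a, Klf15, Adipor2, Tsc22d3, Rhou, Fzd4 and Klf13, and 5 of them are members of the glucocorticoid-responsive list. Slc2a1, the glucose transporter GLUT1 of the blood-brain barrier, measured 97.2 and 102 CPM without GH and 138, 128 and 144 CPM with it. Its groups did not overlap, and the log2 fold changes were 0.46 in Sham, 0.55 in PEL_3d and 0.51 in PEL_10d. Mfsd2a, which carries lysophosphatidylcholine across the same barrier, had log2 fold changes of 0.61 in Sham, 0.68 in PEL_3d and 0.68 in PEL_10d. Fam107a, a glucocorticoid-induced actin regulator, measured 268 and 233 CPM without GH and 343, 290.0 and 351 CPM with it and passed in Sham (adjusted p = 0.046) and in PEL_3d (log2 fold change 0.55, adjusted p = 0.0469). Most other risers did not share this course, since 74 of the 115 were below 0 in PEL_3d and 67 in PEL_10d. Of the 43 genes that fell, 18 were below 0 in PEL_3d, 5 of them at an unadjusted p under 0.05 (2.86% of all genes), and 20 in PEL_10d, 2 of them at that p (2.44%). Another 6 and 3 were above 0 at that p. The splicing factor gene Srsf5 was the only one below 0 at an unadjusted p under 0.05 in both.

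**Figure D2:**
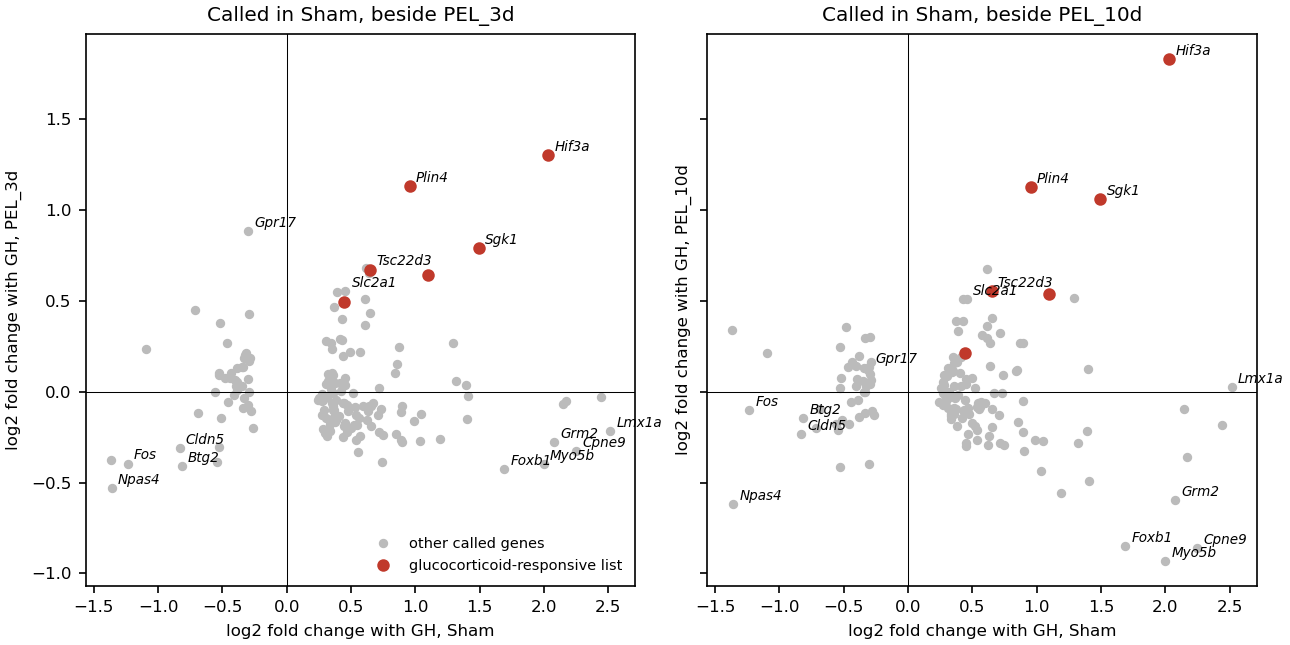
Log2 fold changes with GH of the genes called in Sham hypothalamus (horizontal axis) are plotted against those in PEL_3d (left) and PEL_10d (right), with the called members of the glucocorticoid-responsive list in red. These red points lie above 0 on both axes, and Cpne9, Grm2, Myo5b and Foxb1, at 1.69 to 2.25 in Sham, lie below 0 in both lesioned groups.

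Of the 22 hypothalamic transcription factors tested, 3 rose, among them Lhx1 and Foxb1, 0 fell, 10 were above 0 and the median was -0.07. Foxb1 marks mammillary and neighbouring posterior neurons, and Lhx1 the suprachiasmatic nucleus and mammillary area. Lmx1a, which is not on the list, marks subthalamic and midbrain dopaminergic territory and was named for the size of its rise. Foxb1 (chr9:69757710-69760940) measured 9.19 and 3.55 CPM in Sham 2 and 3 and 24.3, 19.1 and 18.1 CPM in Sham+GH 1 to 3. The groups were apart and Sham 3 was the lowest of the 5, and the log2 fold change was 1.69 ± 0.27 (SE), adjusted p = 0.0116. It was 2.53 without Sham 2 and 1.15 without Sham 3. Lmx1a (chr1:167689237-167848741) was low in both Sham libraries, at 0.926 and 0.571 CPM without GH and 6.35, 2.12 and 4.52 CPM with it, and had the largest rise of the named genes, 2.52 ± 0.48 (SE), adjusted p = 0.0285. Lhx1 measured 8.79 and 9.83 CPM without GH and 16.4, 14.0 and 16.5 CPM with it, with a log2 fold change of 0.75 ± 0.13 (SE), adjusted p = 0.0178. Sham 1 read 0.137 CPM for Foxb1.

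The members Lmx1b and Barhl1 did not pass, Lmx1b at 1.44 ± 0.36 (SE), adjusted p = 0.08, and Barhl1 at 1.5 ± 0.39 (SE), adjusted p = 0.0922. Among the members that did not pass, Six3 measured 28.2 and 36.8 CPM without GH and 21.9, 24.1 and 24.2 CPM with it, Six6 19.0 and 21.9 CPM without GH and 13.4, 15.3 and 15 CPM with it, and Otp 53.7 and 61.8 CPM without GH and 39.4, 49.8 and 47.6 CPM with it. Each was lower in all 3 treated libraries than in both controls, with adjusted p = 0.0657, 0.0608 and 0.127. Sim1, the paraventricular master regulator, was at 0.09. Called members fell to 1 without Sham 3, to 1 without Sham+GH 1 and to 1 without Sham+GH 3, and the fit over all 6 hypothalamic groups called 0. They were 7 with no filter on low counts and 5 with a replicate block.

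Genes in none of the lists rose as well. Cpne9, a calcium-dependent phospholipid-binding copine, measured 12.2 and 4.5 CPM in Sham 2 and 3 and 49.0, 31.5 and 37.7 CPM in Sham+GH 1 to 3. Grm2, a presynaptic group II metabotropic glutamate receptor, measured 9.12 and 6.4 CPM in Sham 2 and 3 and 39.9, 28.0 and 30.2 CPM in Sham+GH 1 to 3. Myo5b, a motor of recycling endosomes, measured 8.13 and 6.34 CPM in Sham 2 and 3 and 36.5, 23.7 and 26.7 CPM in Sham+GH 1 to 3. In all 3 genes both controls were low and Sham+GH 1 was the highest library, and the log2 fold changes were 2.25 ± 0.28, 2.08 ± 0.18 and 2.0 ± 0.19 (SE), with adjusted p = 0.0036, 0.000786 and 0.00111. Without Sham 2 the value of Cpne9 was 3.13, and without Sham 3 it was 1.69. With Sham 1, at 131 CPM of Myo5b, the value of that gene turned to -0.76. Mypn, a sarcomere protein, and Npcd had means of 0.902 and 0.419 CPM in Sham 2 and 3, and rose by 2.17 and 2.44 on the log2 scale (adjusted p = 0.0112 and 0.0145). Other risers, named after their values were seen, were Nxph4 (1.40), which encodes a neurexin ligand, Pvalb (1.32), a calcium buffer of fast-spiking neurons, Cck (1.05), a neuropeptide, Kcnab3 (1.39), a potassium channel subunit, and Kit (0.89), a receptor tyrosine kinase.

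In lesioned mice none of these genes was called. In PEL_3d the log2 fold change was -0.43 for Foxb1, -0.33 for Cpne9 and -0.28 for Grm2. In PEL_10d it was -0.85, -0.86 and -0.60. Markers of regions near the hypothalamus differed between libraries too. The 12 thalamus markers, of which 11 were tested, summed to 429 and 461 CPM in Sham and 459, 406 and 476 CPM in Sham+GH, and 1 of them, Slitrk6, rose (0.90 ± 0.16 (SE), adjusted p = 0.0193). The 10 suprachiasmatic markers summed to 189 and 288 against 225, 209 and 247 CPM, and Vip alone ran from 0.793 CPM in Sham 2 to 15 in Sham 3. Slc6a3, the dopamine transporter of midbrain neurons, ran from 5.01 CPM in Sham 3 to 46.4 CPM in Sham+GH 1. It is also on the list of releasing hormones and dopamine synthesis genes, so it does not mark the midbrain alone. The sum of the 16 hypothalamus markers, given above, was lower in all 3 treated libraries than in both controls, with 10 members below 0, a median of -0.27, and 6 lower and 2 higher at an unadjusted p under 0.05. How far such differences in the tissue taken enter the rises of Foxb1, Lmx1a, Lhx1, Cpne9, Grm2 and Myo5b, or other differences here, was not tested. The same holds for the interactions of Grm2 and Myo5b given below.

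**Figure D3:**
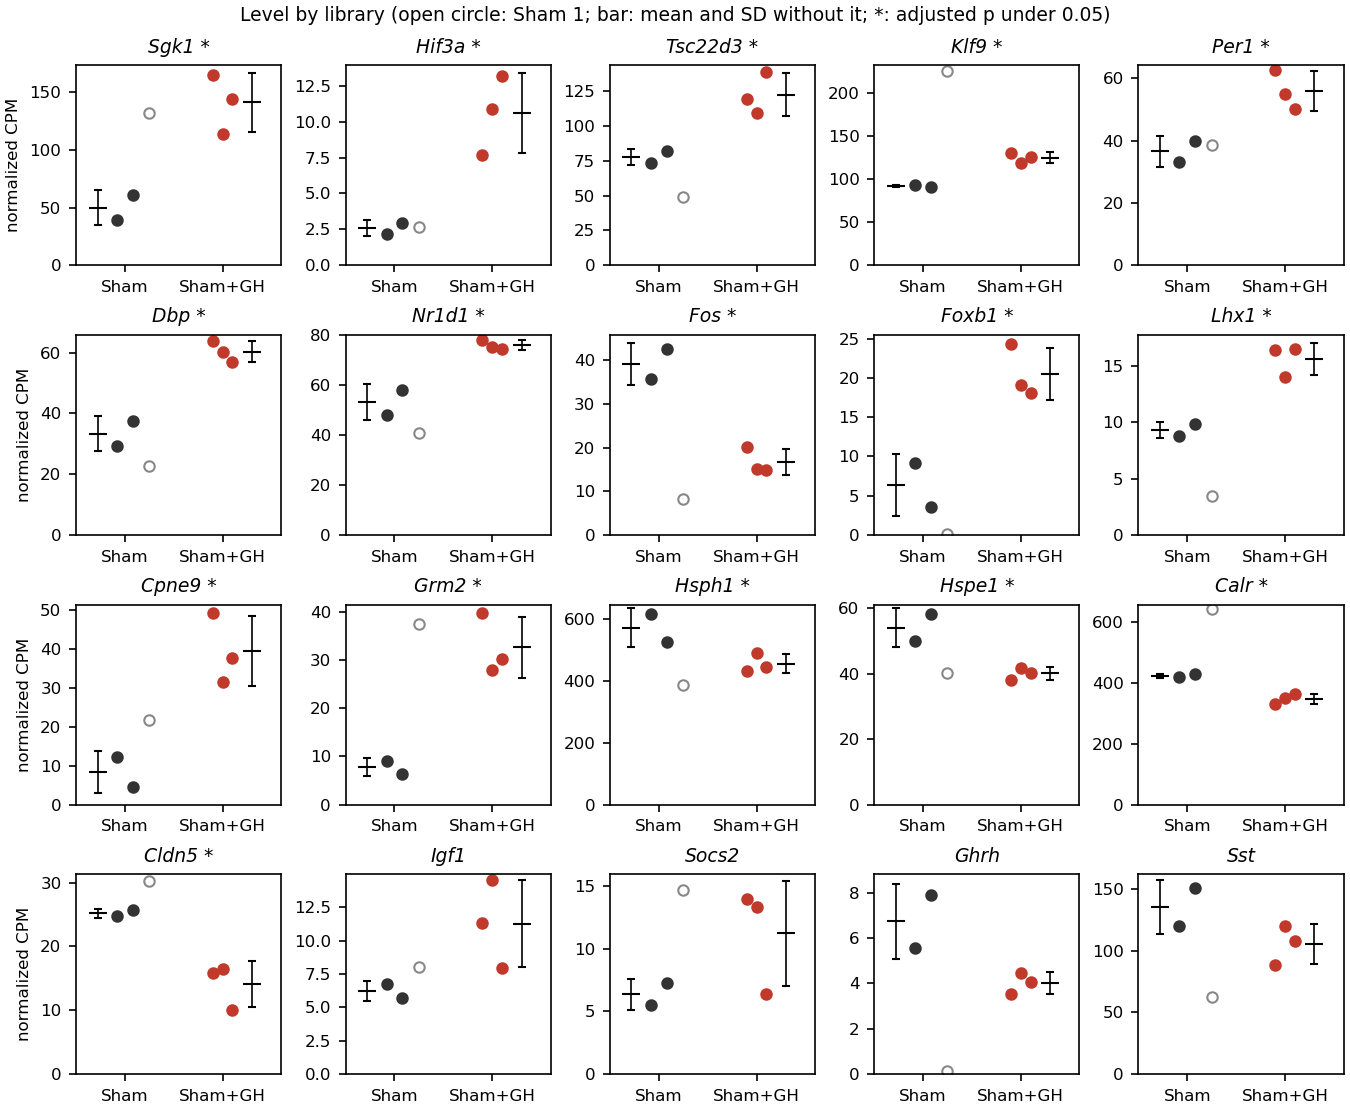
Normalized CPM of 20 genes is plotted by library, black for Sham 2 and 3, red for Sham+GH 1 to 3 and open for Sham 1, with the mean and SD beside the points. The red points stand clear of both black points in the starred genes, in which the adjusted p was under 0.05, and Sham 1 lies among or beyond the treated libraries for Sgk1, Klf9, Grm2, Fos and others.

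The clock genes Dbp, Per1 and Nr1d1 rose. Of 16 clock genes tested, 3 rose, 0 fell, 14 were above 0 and the median was 0.20. Dbp, a PAR bZIP transcription factor (chr7:45705088-45710203), measured 29.2 and 37.4 CPM in Sham 2 and 3 and 63.8, 60.2 and 56.9 CPM in Sham+GH 1 to 3. Both controls were below all treated libraries, and the log2 fold change was 0.85 ± 0.10 (SE), adjusted p = 0.00222. Per1, a repressor of the clock that also responds to glucocorticoids, measured 33.1 and 40.0 CPM without GH and 62.7, 54.9 and 50.1 CPM with it, with 0.61 ± 0.10 (SE), adjusted p = 0.0168. Nr1d1 (REV-ERBα), which represses Arntl, measured 48.1 and 58.2 CPM without GH and 78.3, 75.3 and 74.6 CPM with it, with 0.52 ± 0.08 (SE), adjusted p = 0.0114. The 2 members below 0, Arntl (-0.28) and Npas2 (-0.42), peak in the opposite phase, and neither passed the threshold (adjusted p = 0.177 and 0.175). Clock was among the 14 members above 0. In PEL_3d and PEL_10d, Dbp was at 0.15 and -0.17, Nr1d1 at -0.01 and -0.19, and Per1 at 0.37 and 0.36. Called members fell to 1 without Sham 2, to 1 without Sham+GH 1 and to 1 in the fit over all 6 hypothalamic groups. The hour at which each mouse was killed is not given in the sources used here, and its part in the result was not tested.

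The clock proteins CLOCK and ARNTL bind the E-box CACGTG, which reads the same on both strands. It was found in 7.15% of all promoter windows, in 11.2% of tested genes with a window and in 5 of the 14 clock genes with a window. It was in 13 of the 92 genes that rose and 7 of the 36 that fell, and the windows of Dbp and Nr1d1 held none. The stretch before a Per1 start (chr11:69098723-69098848, plus strand) is shown with its E-box in capitals, since Per1 rose in Sham and was above 0 in both lesioned groups.
Per1: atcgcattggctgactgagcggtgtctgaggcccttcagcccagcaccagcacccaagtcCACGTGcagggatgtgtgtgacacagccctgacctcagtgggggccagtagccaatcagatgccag

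Of 21 immediate early genes tested, which neurons switch on within minutes of firing, 3 fell with GH and 0 rose. In all 17 were below 0 and 4 above, with a median of -0.38, and the fit over all 6 groups called 0. Fos (chr12:85473890-85477273), a subunit of the AP-1 factor, measured 35.7 and 42.6 CPM in Sham 2 and 3 and 20.1, 15 and 14.9 CPM in Sham+GH 1 to 3. Treated libraries were all below both controls, with a log2 fold change of -1.24 ± 0.13 (SE), adjusted p = 0.00121. Sham 1 read 8.34 CPM. Npas4, an activity-dependent factor that adjusts inhibitory synapses, measured 6.15 and 7.99 CPM without GH and 3.01, 3.15 and 2.07 CPM with it, with -1.36 ± 0.23 (SE), adjusted p = 0.0145. Btg2, an antiproliferative gene, measured 26.0 and 24.5 CPM without GH and 15.3, 12.2 and 15.6 CPM with it, with -0.82 ± 0.12 (SE), adjusted p = 0.00705. Nr4a1 (-1.02, adjusted p = 0.0584), Arc (-0.49, 0.0543) and Egr1 (-0.38, 0.0717) stood below 0 short of the threshold. Nr4a2 stood at 0.55, with 9.98 and 10.8 CPM without GH and 22.3, 11.8 and 11.7 CPM with it. Without Sham 3 the list's median was -0.22 and Npas4 had an adjusted p of 0.16. Npas4 also missed the threshold without Sham+GH 1 (adjusted p = 0.0524), and Btg2 without Sham 2 (adjusted p = 0.0648). The list had medians of -0.08 in PEL_3d and 0.17 in PEL_10d, with 0 members called in either.

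Of 15 chaperones tested, 3 fell, 0 rose, 14 were below 0 and 9 were lower at an unadjusted p under 0.05, with a median of -0.22. Hsph1, an HSP110 nucleotide exchange factor, measured 615 and 526 CPM in Sham 2 and 3 and 430.0, 488 and 445 CPM in Sham+GH 1 to 3. Hspe1, the mitochondrial co-chaperonin HSP10, measured 49.9 and 58.3 CPM without GH and 38.1, 41.8 and 40.3 CPM with it. Calr, the calreticulin of the endoplasmic reticulum, measured 420.0 and 429 CPM without GH and 330.0, 352 and 363 CPM with it. In each, treated libraries were below both controls, by log2 fold changes of -0.33 ± 0.07, -0.43 ± 0.08 and -0.29 ± 0.05 (SE), with adjusted p = 0.0483, 0.0285 and 0.0268. Without Sham 2, Hsph1 stood at -0.21 (adjusted p = 0.33). Further chaperones fell that are not on the list and are named after their values were seen. They were Hsp90b1 (-0.34), the HSP90 of the endoplasmic reticulum, Stip1 (-0.40), which joins HSP70 to HSP90, the HSP90 activators Ahsa1 (-0.30) and Ahsa2 (-0.47), Chordc1 (-0.40), the disulfide isomerase Pdia6 (-0.29) and the small heat shock protein Cryab (-0.33). The cold-inducible RNA-binding protein gene Rbm3, named likewise, rose, at 36.4 and 34.6 CPM without GH and 64.9, 53.0 and 72.7 CPM with it (0.84 ± 0.11 (SE), adjusted p = 0.00593).

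The direction of the chaperone list was the opposite in lesioned mice. In PEL_3d 15 of 15 members were above 0 (median 0.29, 8 at an unadjusted p under 0.05), and in PEL_10d 13 of 15 (median 0.18, 9 at an unadjusted p under 0.05), with 0 members called in either. Neither interaction called a member. The called members in Sham were 1 without Sham 2, 0 without Sham+GH 1 and 1 without Sham+GH 3, and the fit over all 6 groups called 0.

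Heat shock factor 1 binds a triplet repeat, searched on both strands as GAA, NN, TTC, NN, GAA in a row, which covers its reverse complement TTC, NN, GAA, NN, TTC. It was found in 0.60% of all promoter windows, in 61 of 11306 tested genes with a window (0.54%), in 4 of the 36 genes that fell and in 0 of the 92 that rose. The 4 were Chordc1, Hnrnpa2b1, Hsph1 and Hspe1. The remaining 2 motifs are bound by factors that drive immediate early genes. The CArG box of serum response factor was in 1 of the 16 immediate early genes with a window, 4 of the 92 that rose and 0 of the 36 that fell, against 1.64% of tested genes. The CRE of CREB, TGACGTCA, which reads the same on both strands, was in 2 of the 16, 0 of the 92 and 2 of the 36, against 3.44%. The matches of Hspe1 (chr1:55088053-55088082, plus strand) and Hnrnpa2b1 (chr6:51469863-51469891, minus strand) are shown in capitals with their immediate flanks. In Hspe1, 2 matches overlap each other.
Hspe1: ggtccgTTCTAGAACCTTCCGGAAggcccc
Hnrnpa2b1: agtgggggGAAGGTTCTAGAAaagcggcg

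Some genes that bind RNA or take part in splicing fell too. No such list was tested, and the genes below are named after their values were seen. Genes of this kind that rose, such as Rbm3 above, were not counted. Srsf5, a serine and arginine rich splicing factor, measured 190.0 and 180.0 CPM without GH and 118, 120.0 and 147 CPM with it. Hnrnpa2b1, which binds and sorts nuclear RNA, measured 411 and 428 CPM without GH and 294, 292 and 342 CPM with it. Treated libraries lay below both controls for both genes, with log2 fold changes of -0.53 and -0.44 and adjusted p = 0.0118 and 0.0108. Tra2a (-0.53), Srek1 (-0.41), Hnrnpm (-0.35), Taf15 (-0.39), Rbm28 (-0.51) and the mRNA-decay factor Zfp36l2 (-0.53) fell too. Srsf5 was also below 0 in PEL_3d (-0.30) and PEL_10d (-0.41).

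Among the rest of the largest falls, Fxyd5, a subunit that modulates the sodium pump, measured 9.59 and 13.6 CPM without GH and 6.09, 6.19 and 3.95 CPM with it. Fabp7, the fatty acid binding protein of glial progenitors, measured 36.8 and 38.2 CPM without GH and 23.0, 26.9 and 26.4 CPM with it. Both had treated libraries below the controls, with -1.1 ± 0.21 and -0.56 ± 0.09 (SE) on the log2 scale, adjusted p = 0.0285 and 0.0118. The cilium genes Ccdc151 (-0.71) and Crocc (-0.54) and the dynein light chain gene Dynlt1c (-0.69) fell by less than 2-fold. Dynlt1c has near-identical copies beside it, so its counts are uncertain.

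Genes of the GH receptor pathway did not pass in Sham. Of the 15 tested, 0 were called, 10 were above 0 and the median was 0.06. The receptor itself measured 29.8 and 26.2 CPM in Sham 2 and 3 and 27.1, 31.4 and 25.6 CPM in Sham+GH 1 to 3 (Ghr, log2 fold change 0.01 ± 0.10 (SE), adjusted p = 0.987). Its groups overlapped, as did those of Stat5a and Stat5b, at 0.05 ± 0.18 and 0.06 ± 0.06 (SE). Socs2, the feedback inhibitor most used as a readout of the receptor, measured 5.49 and 7.23 CPM without GH and 14.0, 13.3 and 6.4 CPM with it. Sham+GH 1 and 2 were above both controls and Sham+GH 3 lay between them, which gave 0.82 ± 0.28 (SE), adjusted p = 0.181. Cish, which encodes CIS, measured 4.69 and 6.59 CPM without GH and 15.1, 7.73 and 3.77 CPM with it. Sham+GH 3 lay below both controls and the other treated libraries above, with 0.65 ± 0.41 (SE), adjusted p = 0.489. The log2 fold change of Cish was 0.03 without Sham+GH 1, 1.01 without Sham+GH 3 and 0.43 without Sham 2. Without Sham+GH 3 the log2 fold change of Socs2 was 1.1, with an adjusted p of 0.0189. Sham 1 read 14.7 CPM. In PEL_3d Socs2 rose, by 1.15 (adjusted p = 0.0469), and in PEL_10d it stood at 0.77 (adjusted p = 0.842).

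In the IGF axis, 0 of 16 tested members were called, 11 were above 0 and the median was 0.09. Igf1 (chr10:87858265-87937042) measured 6.74 and 5.71 CPM in Sham 2 and 3 and 11.3, 14.5 and 7.97 CPM in Sham+GH 1 to 3. All 3 treated libraries were above both controls, and the log2 fold change of 0.86 ± 0.22 (SE) had an adjusted p of 0.0922. The adjusted p was 0.0276 without Sham+GH 3, 0.0234 with no filter on low counts, 0.0033 with a replicate block and 0.0416 with DESeq2. Under the other alternatives it was between 0.0904 and 0.56. In the replicate block Sham+GH 1 has no control of its number and adds nothing to the difference. Without Sham+GH 1 the adjusted p was 0.273. With GH the log2 fold change of Igf1 was 1.14 in PEL_3d and 0.44 in PEL_10d, neither past the threshold (adjusted p = 0.286 and 0.863). Irs2, an adaptor of the insulin and IGF1 receptors, measured 99.4 and 104 CPM without GH and 131, 128 and 111 CPM with it (adjusted p = 0.0966). Igfbp6, an IGF2-binding protein, was lower in every treated library, at 8.93 and 12.6 CPM without GH and 6.22, 8.02 and 4.46 CPM with it (adjusted p = 0.12). The receptor gene Igf1r was at -0.01. Outside the list Irs4, an insulin receptor substrate of the hypothalamus, fell, from 272 and 256 CPM to 219, 221 and 201 CPM (-0.30 ± 0.06 (SE), adjusted p = 0.0285), and is named after its values were seen.

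The neuropeptides that govern GH release were not called, with 0 of 11 tested members past the threshold. Ghrh, the releasing hormone, measured 5.55 and 7.92 CPM in Sham 2 and 3 and 3.53, 4.47 and 4.08 CPM in Sham+GH 1 to 3. Its treated libraries were all below both controls, with -0.74 ± 0.21 (SE), adjusted p = 0.116. Sst, somatostatin, measured 120.0 and 151 CPM without GH and 88.6, 120.0 and 108 CPM with it. Sham 2 was level with Sham+GH 2, and the log2 fold change was -0.36 ± 0.11 (SE), adjusted p = 0.152. Without Sham 3 the values were -0.46 for Ghrh and -0.18 for Sst. Npvf, the RF-amide that acts on reproductive neurons, stood at 0.59 ± 0.15 (SE), adjusted p = 0.0895, and Ghsr, the ghrelin receptor, at 0.34 ± 0.13 (SE), adjusted p = 0.238. Among releasing hormones and dopamine synthesis genes, 0 of 11 were called. Trh had 109 and 160.0 CPM without GH and 60.1, 89.5 and 120.0 CPM with it and an adjusted p of 0.211.

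The magnocellular list, 14 genes, had 0 called members. Avp, vasopressin, measured 80.5 and 127 CPM in Sham 2 and 3 and 72.4, 84.1 and 78.5 CPM in Sham+GH 1 to 3. Sham 3 stood above the other 4 libraries, which overlapped, with -0.41 ± 0.14 (SE), adjusted p = 0.183. Oxt, oxytocin, measured 47.7 and 118 CPM without GH and 36.1, 65.6 and 44.9 CPM with it. Sham 3 was again apart, and the log2 fold change was -0.76 ± 0.29 (SE), adjusted p = 0.239. Both values rested on the 2 Sham libraries. Without Sham 2, which left Sham 3 as the only control, Avp stood at -0.70 and Oxt at -1.26. Without Sham 3 they stood at -0.04 and 0.04. With a replicate block, in which Sham+GH 1 again adds nothing, Avp had an adjusted p of 0.0306, against 0.489 without Sham+GH 1. Of 15 feeding and arousal peptides, 1 rose. It was Adcyap1, which encodes PACAP, at 106 and 97.2 CPM in Sham 2 and 3 and 155, 132 and 135 CPM in Sham+GH 1 to 3. Its groups were apart, and the log2 fold change was 0.47 ± 0.07 (SE), adjusted p = 0.0118. Agrp and Pomc, the opposed melanocortin pair, stood at 0.72 and -0.42 with adjusted p = 0.19 and 0.194. Of 15 appetite hormone receptors 0 were called.

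**Figure D4:**
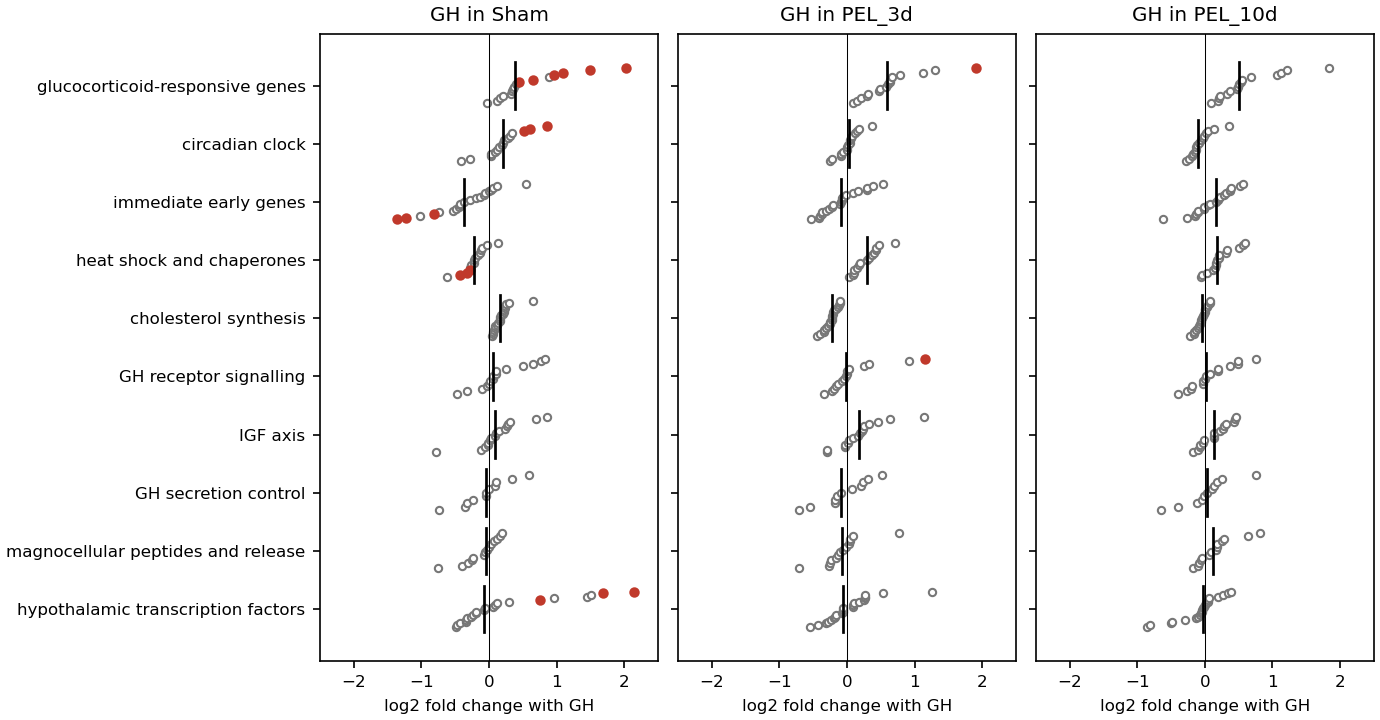
Log2 fold changes with GH are plotted for the tested members of 10 gene lists in Sham, PEL_3d and PEL_10d, filled where the adjusted p was under 0.05, with a bar at each list's median. The glucocorticoid-responsive list lies to the right of 0 in all 3 panels apart from Ddit4 in Sham, at -0.04, and the chaperone and cholesterol lists change sides between Sham and PEL_3d.

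No cholesterol synthesis gene was called. Of the 20 members tested, 20 were above 0 and 9 were higher at an unadjusted p under 0.05, with a median of 0.17. Hmgcs1, the enzyme that feeds the mevalonate pathway, measured 296 and 296 CPM without GH and 352, 346 and 336 CPM with it. The groups did not overlap, with an adjusted p of 0.0586. In PEL_3d, 0 of 19 tested members were above 0 (median -0.23), and in PEL_10d 7 of 19 (median -0.03). Ribosomal protein, respiratory chain, interferon-stimulated and synaptic receptor lists had 0 called members, with medians of -0.14, -0.08, -0.15 and -0.03.

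Markers of brain cell types were called in few genes. Of 12 endothelial markers, 2 rose and 1 fell. Cldn5, the main tight junction claudin of brain vessels, measured 24.7 and 25.7 CPM in Sham 2 and 3 and 15.9, 16.5 and 9.98 CPM in Sham+GH 1 to 3. Both controls were above every treated library, and Sham+GH 3 was the lowest (-0.83 ± 0.16 (SE), adjusted p = 0.0342). Slco1a4, an organic anion transporter, measured 45.2 and 44.2 CPM without GH and 55.1, 56.8 and 56.6 CPM with it (0.33 ± 0.07 (SE), adjusted p = 0.0397), and the other riser was Slc2a1. The summed level of the 12 was 497 and 500.0 CPM in Sham and 527, 529 and 512 CPM in Sham+GH. Called members were 0 without Sham 2, 1 without Sham 3, 1 without Sham+GH 1 and 0 in the fit over all 6 groups.

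Of 12 astrocyte markers, 2 rose, Itih3 (305 and 277 CPM without GH and 380.0, 362 and 374 CPM with it, adjusted p = 0.0112) and Fgfr3 (132 and 129 CPM without GH and 167, 151 and 155 CPM with it, adjusted p = 0.0497). Their list summed to 4000.0 and 3960.0 CPM in Sham and 4430.0, 4230.0 and 4290.0 CPM in Sham+GH, with 11 of 12 above 0. Called members were 0 without Sham 3, 0 without Sham+GH 1, 1 without Sham 2 and 1 without Sham+GH 3, and 0 in the fit over all 6 groups. Among 8 markers of oligodendrocyte precursors, Gpr17, a receptor of cells about to differentiate, fell (98.4 and 106 CPM without GH and 78.9, 86.6 and 83.6 CPM with it, adjusted p = 0.0483), and 8 of 8 were below 0. Neurons, oligodendrocytes, microglia, border macrophages, mural cells, ependyma, choroid plexus, blood, hippocampus, striatum, hypothalamus and basal forebrain lists had 0 called members. Of 6 pituitary markers tested, 0 were called. Gh itself, a sign of pituitary tissue, read 7.6 CPM in Sham 2, 0 in Sham 3 and 0.769, 0.172 and 0.126 CPM in Sham+GH, and the summed list 28.4 and 17.5 against 15.9, 10.7 and 14.9 CPM.

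The GH difference in Sham was also set against that in lesioned mice by an interaction term. Against PEL_3d, 7 of 15164 genes differed, 6 with a more positive and 1 with a more negative GH difference in Sham, which is 0.0396% and 0.00659% of the genes tested and 0.0462% together. Kit went from 0.89 in Sham to -0.26 in PEL_3d, Myo5b from 2.0 to -0.40 and Rgs6, a regulator of G protein signalling, from 0.99 to -0.16. The muscle-type glycogen phosphorylase gene Pygm and the ankyrin gene Ank1 went from 0.55 to -0.33 and from 0.57 to -0.24. These 5 genes had an interaction adjusted p of 0.0329 each, and Grm2 and Apoe one of 0.0452. Apoe, the lipid carrier of glia, named after its values were seen, stood at -0.14 in Sham and 0.71 in PEL_3d. The count rested on single libraries. It was 0 without PEL_3d 1, PEL_3d 3, PEL_3d_GH 1, Sham 2, Sham+GH 1, 2 or 3, and with Sham 1, 1 without Sham 3, 2 without PEL_3d 2, 15 without PEL_3d_GH 2 and 633 without PEL_3d_GH 3. DESeq2 called 148 (1.05%).

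Against PEL_10d, 0 of 15116 genes differed in edgeR (0.0%), 690 and 676 had an interaction above and below 0 at an unadjusted p under 0.05, and DESeq2 called 97 (0.688%). Without PEL_10d 1 edgeR called 48. A gene called in Sham and not in PEL_10d is therefore not shown in edgeR to respond differently there. Against PEL_3d the same holds for all but 6 of the genes called in Sham, and no interaction was called without any 1 of the 7 libraries listed above, with a replicate block or with Sham 1.

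With Sham 1 among the controls no list had a called member, and the median changed sign in 10 of 35 lists. Glucocorticoid-responsive genes had 13 of 16 members above 0 (median 0.32, 6 at an unadjusted p under 0.05), clock genes 13 of 16 (median 0.24) and cholesterol synthesis genes 20 of 20 (median 0.24). Immediate early genes had 18 of 21 members below 0 (median -0.62) and chaperones 14 of 15 (median -0.25). The hypothalamic transcription factors moved to 17 of 22 above 0 with a median of 0.31, and their summed level was 102 CPM in Sham 1 against 372 to 385 CPM in the other libraries. The median of the hypothalamus markers went from -0.27 to 0.27, that of feeding and arousal peptides from -0.03 to 0.49, that of the magnocellular list from -0.04 to 0.23, that of the GH secretion list from -0.04 to 0.13 and that of appetite hormone receptors from -0.09 to 0.09. Hippocampus markers went from 0.01 to -1.08, pituitary markers from -0.82 to 0.09, neuron markers from 0.07 to -0.001 and the IGF axis list from 0.09 to -0.06. Sgk1, Fos and Grm2 had log2 fold changes of 0.86, -0.80 and 0.88.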

How the data were processed

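Hypothalamic RNA-seq libraries of Sham and Sham+GH mice were compared. Per the study's methods, reads were aligned with Hisat2 and counted with featureCounts, and the submitters' processing notes name GRCm38 (mm10). The authors deposited a table of 22274 genes with estimated counts, of which 8.22% were not whole, and with FPKM values, which entered no test. Estimated counts were rounded. Genes were filtered with filterByExpr (minimum count 10), scaled by TMM and tested with the quasi-likelihood test of edgeR 4.0.16 (R 4.3.3), and p-values adjusted by Benjamini-Hochberg were held to 0.05. Sham 1 was left out of the comparison and added as an alternative. Levels are normalized CPM from the 5-library fit, and those of Sham 1 come from the 6-library fit. GH against no GH at PEL_3d and PEL_10d was fitted in the same way, and differences between these effects were tested as interactions. Total counts of the 6 libraries were 15095267 to 17453164, which sets the precision of genes of low level.

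Counts of 2 Sham or 2 Sham+GH libraries differed by more than sampling noise (chi-square per degree of freedom of at least 3.19), so none was taken as a repeat of another. Named genes were the 10 called genes with the largest rise and fall (mean CPM of at least 1, groups not overlapping, with a symbol), members of 35 gene lists, 10 genes of the GH axis and the leading 5 interaction genes. A gene that this rule names is not reported here. The members and lists were chosen with earlier results of these data known. Alternatives were DESeq2 1.42.0, its size factors, no filter, a mean count of at least 50, a replicate block, 1 fit over all hypothalamic groups and leaving out each library. Gene positions are from the GENCODE annotation of GRCm38 and promoters from RefSeq (GRCm38.p6), and 92 of the 116 and 36 of the 43 called genes had a promoter window.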

Additional observations from a re-analysis of the deposited data

Results flagged for a closer look

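In 7 genes the GH difference in Sham differed from that in PEL_3d by the interaction test (edgeR quasi-likelihood, Benjamini-Hochberg adjusted p = 0.0329 or 0.0452). The log2 difference between the GH effects (Sham minus PEL_3d) was 1.17 for Kit, 0.825 for Ank1, 2.413 for Myo5b, 1.163 for Rgs6, 0.9 for Pygm, 2.365 for Grm2 and -0.835 for Apoe. These calls did not hold in the fit with Sham 1 or with a replicate block, which called 0 genes each.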

How the results depend on the processing

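The 159 genes called in Sham became 262 with DESeq2 (151 shared), 359 with no filter on low counts, 317 with a replicate block, 13 in 1 fit over all 6 hypothalamic groups, 2187 at an unadjusted p under 0.05 and 24 with an absolute log2 fold change of at least 1. Leaving out 1 library gave 44 to 190. With Sham 1 the count of 0 became 11 with DESeq2 and 7 in the fit over all groups, and ran from 0 to 159 when 1 library was left out, the 159 being the fit without Sham 1. The 7 interactions with PEL_3d became 148 with DESeq2, 19 with no filter, 0 with a replicate block and 0 with Sham 1, and 0 to 633 with 1 library left out, 633 without PEL_3d_GH 3. The 0 interactions with PEL_10d became 97 with DESeq2, 12 with no filter, and 0 to 48 with 1 library left out, 48 without PEL_10d 1. The 4 genes called in PEL_3d became 57 with DESeq2, 8 with no filter, 1 with a replicate block and 1 to 56 with 1 library left out, 56 without PEL_3d_GH 3, and the 0 in PEL_10d became 41 with DESeq2. Except where fewer libraries, genes or a stricter threshold make the difference, the cause was not tested. Over 52 named genes and 568 values under the alternatives without Sham 1, 430 kept their direction and side of the threshold, 125 kept the direction but lost the call, 8 kept it and gained one, and 5 changed sign, none of them called in either fit. With 1 library left out, the log2 fold change of Ghr ran from -0.085 (without Sham+GH 2) to 0.104, with -0.083 without Sham 3, that of Stat5a from -0.08 (without Sham 2) to 0.203, and that of Oxt from -1.264 (without Sham 2) to 0.039 (without Sham 3). With a replicate block that of Cish was -0.007. In the replicate block, 154 of the 317 genes called were among the 159. Sham+GH 1 has no control of its number there and adds nothing to the difference. That fit is therefore no check apart from the one without Sham+GH 1, which called 44. By their labels, samples of the same number have only that number in common. The correlations of their deviations were 0.076 and 0.058 in the 2 same-numbered pairs. With 2 controls, whose deviations mirror each other, these values cannot show whether the numbers mark a pairing.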
